A study of Mus musculus with 3 samples.

Results

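The hypoxia-induced genes described here are a list of 10 genes: Ddit4, Ero1a, Ndrg1, Vegfa, Bnip3, Hif1a, Adm, Egln1, Egln3 and Ankrd37. Cells are known to switch them on when oxygen is short, except that Hif1a is largely controlled at the protein level. They were looked up by name in the annotation of a 2-colour Agilent mouse array, where 8 were listed under their own or an older name. Ddit4 was found through its gene ID, since the array carries it under a RIKEN name, and Ankrd37 was not analysed here. The 9 genes measured had 11 probes, of 20371 probes and 10008 named genes on the array. The RNA came from primary cultures of the epithelium on the surface of the mouse ovary, taken from superovulated, mated C57/Bl6 females after the capsule around the ovary had been removed. Each of 3 cultures was split, and 1 portion stayed epithelial in 2.5% fetal bovine serum while the other spent 1 week in 15% serum and became mesenchymal. Both portions were collected at 80% confluence, and each pair of RNAs was put on 2 arrays that differ in which RNA carries Cy3 and which Cy5, 6 arrays in all. The higher serum and the mesenchymal state always came together and cannot be told apart. The labels give no oxygen treatment and no oxygen measurement.

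In cells with enough oxygen, the prolyl hydroxylases encoded by the Egln genes mark the HIF alpha proteins for destruction through the VHL ubiquitin ligase. When oxygen falls, HIF alpha is stable, pairs with ARNT and switches on genes of glucose use, blood vessel growth, mitophagy and growth arrest, among them Egln1 and Egln3 themselves. Control of Hif1a is largely at the protein level, which arrays do not measure. Ddit4, Ndrg1 and Ero1a are also known to be induced by endoplasmic reticulum and amino acid stress.

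Each value is the log2 of mesenchymal over epithelial RNA, as the mean ± SD over cultures (n = 3 unless stated), so a negative value means less RNA in mesenchymal cells. A gene was called changed at an adjusted p under 0.05 from limma, corrected over all 17582 features tested. Of the 9 genes measured, 5 fell in mesenchymal cells, none rose and 4 did not pass the threshold. Over all features 5.92% were called lower and 5.96% higher, 11.9% in all. The 3 genes that fell most were Ddit4, Ero1a and Ndrg1, with 3.34-fold, 3.08-fold and 2.57-fold less RNA than in epithelial cells. Vegfa and Egln1 fell by less, 1.45-fold and 1.39-fold. Hif1a, Bnip3 and Adm had mean log2 ratios between -0.01 and 0.11. The median log2 ratio of the 9 genes was -0.53, against -0.003 over all features. In bulk RNA, fewer cells that express a gene and less RNA per cell cannot be told apart.

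HIF binds DNA at a short core, ACGTG or GCGTG, and the stretches before the transcription starts are shown for genes of both kinds, 3 that fell and 2 that did not pass. Each line is a stretch of the 250 bases before a RefSeq start (GRCm38.p6), read 5′ to 3′ on the gene's strand, with each core in capitals on either strand (CACGT and CACGC are the cores read on the other strand).
Ddit4, chr10:59951933-59951977, minus strand: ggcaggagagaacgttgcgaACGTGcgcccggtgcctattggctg
Ero1a, chr14:45318611-45318720, minus strand: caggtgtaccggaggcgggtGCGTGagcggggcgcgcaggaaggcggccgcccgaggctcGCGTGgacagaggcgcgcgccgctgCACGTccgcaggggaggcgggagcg
Egln1, chr8:124949298-124949342, minus strand: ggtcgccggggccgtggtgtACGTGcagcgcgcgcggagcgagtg
Bnip3, chr7:138909581-138909643, minus strand: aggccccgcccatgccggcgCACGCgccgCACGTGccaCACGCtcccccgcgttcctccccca
Adm, chr7:110627547-110627627, plus strand: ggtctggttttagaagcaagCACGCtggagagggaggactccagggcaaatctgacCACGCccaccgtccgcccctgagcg

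Counted over both strands, where the palindrome CACGTG counts as 2 matches, the 250 bases held 2 cores at Ddit4, 3 at Ero1a, 2 at Egln1, 5 at Bnip3, 2 at Adm, 1 at Egln3 and 3 at the start listed for Hif1a. Vegfa has 2 listed starts. The stretch before the upstream one, just outside the gene, held 0 cores. That before the downstream one lies inside the gene and held 2. The stretch printed for neither gene but counted for Hif1a also lies inside that gene's listed span. Of 32851 mouse promoter stretches of this length, 38.6% held at least 1 core (16.6% ACGTG and 28.2% GCGTG), and 6.58% held 3 or more. Counts were not adjusted for the share of G and C, which was 50.8% at Egln3, 72.4% at Bnip3 and 86% at Egln1. Bnip3, whose RNA did not pass the threshold, held the most cores of the 8 measured genes with a promoter stretch (Ndrg1 has none here), and a core was found in genes that fell and in genes that did not pass. A match is a string of letters, not a site of binding, and no binding was measured. Cores outside these 250 bases were not looked for, so 0 cores before a start does not mean that a gene has none.

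**Figure D1:**
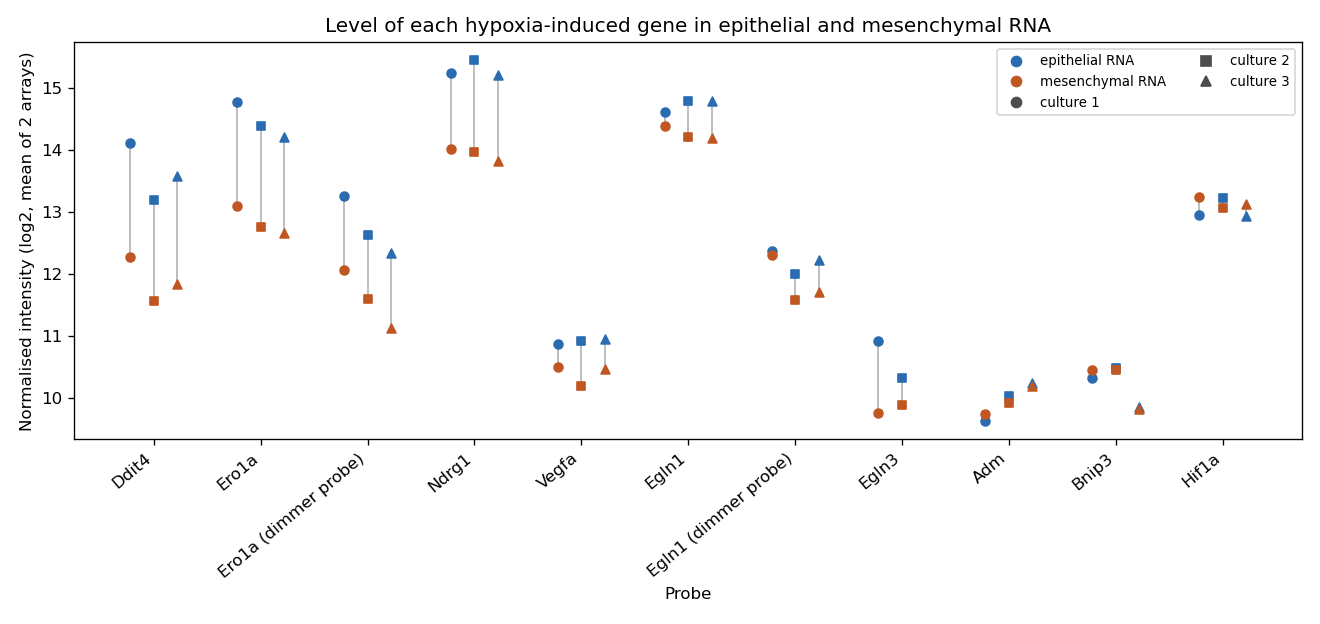
Normalised intensity (log2, mean of the 2 arrays of a culture) of 11 probes for 9 genes, in epithelial (blue) and mesenchymal (orange) RNA of cultures 1 to 3, with a line joining the RNAs of a culture. For Ddit4, Ero1a and Ndrg1 every mesenchymal point lies below every epithelial one, while Adm, Bnip3 and Hif1a overlap. Heights are not comparable between probes.

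Ddit4 encodes REDD1, a brake on the growth kinase mTOR. Its epithelial levels were 14.11, 13.19 and 13.58 (log2 intensity, cultures 1 to 3) and its mesenchymal levels 12.27, 11.56 and 11.83. The lowest epithelial culture lay above the highest mesenchymal one. The log2 ratios were -1.84, -1.63 and -1.75, and Ddit4 fell by 1.74 ± 0.11 (adjusted p = 0.000173, limma). By its log2 ratio it ranked in the lowest 0.233% of features.

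Ero1a encodes the oxidase that recharges protein disulfide isomerase in the endoplasmic reticulum. Its brighter probe read 14.77, 14.39 and 14.21 in epithelial RNA and 13.09, 12.76 and 12.65 in mesenchymal RNA, with no overlap. With log2 ratios of -1.68, -1.64 and -1.56 it fell by 1.62 ± 0.06 (adjusted p = 0.000173, limma), the smallest SD of the 9 genes. The dimmer probe had -1.19, -1.02 and -1.21, so it fell by 1.14 ± 0.10 (2.20-fold). In the limma fit of every probe, where 11.3% of 20185 probes were called, its adjusted p was 0.000717. Both Ero1a probes fell, by different amounts. Both carry the older name of Ero1a in both versions of the annotation, but in the version used for a single array, that of culture 3 with mesenchymal RNA in Cy3, the description of the brighter one names another sequence.

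Ndrg1 is a stress-induced gene linked to cell differentiation. Its levels were 15.24, 15.44 and 15.21 in epithelial RNA and 14.01, 13.97 and 13.82 in mesenchymal RNA. The groups lay far apart, with no overlap. The log2 ratios were -1.23, -1.47 and -1.39, and Ndrg1 fell by 1.36 ± 0.13 (adjusted p = 0.00035, limma).

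Vegfa encodes the main growth factor of blood vessels. Its levels were 10.86, 10.92 and 10.95 in epithelial RNA and 10.49, 10.18 and 10.46 in mesenchymal RNA. All 3 mesenchymal values lay below the epithelial ones and the log2 ratios were -0.37, -0.73 and -0.49. Vegfa fell by 0.53 ± 0.19 (adjusted p = 0.0151, limma). The call was lost without culture 2 (-0.43, adjusted p = 0.0708) and without culture 3 (-0.55, adjusted p = 0.0908). A further probe has no name in the annotation used, and the annotation of the culture 3 array with mesenchymal RNA in Cy3 calls it Vegf, so it was not counted as Vegfa. That probe had log2 ratios of -1.31, -1.07 and -1.06 and fell by 1.15 ± 0.14 (adjusted p = 0.000904 over all probes, limma). Its mean brightness on that one array was 8.70 (log2), against 12.95 to 13.70 on the other 5.

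The prolyl hydroxylase genes Egln1 and Egln3 encode oxygen sensors that are also HIF targets. The brighter Egln1 probe read 14.61, 14.78 and 14.79 in epithelial RNA and 14.38, 14.21 and 14.19 in mesenchymal RNA. The groups did not overlap, but culture 1 differed by only -0.23, against -0.57 and -0.61. Egln1 fell by 0.47 ± 0.21 (adjusted p = 0.028, limma), and its call was lost without culture 2 (-0.42, adjusted p = 0.12) and without culture 3 (-0.40, adjusted p = 0.199). The dimmer Egln1 probe had -0.33 ± 0.24 (adjusted p = 0.109 over all probes), its mesenchymal range overlapped the epithelial one, and the mean of both probes had an adjusted p of 0.0504.

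Egln3 was measured in 2 cultures, because 1 of its spots in culture 3 was outlier-flagged and the culture was dropped for this gene. Its levels were 10.91 and 10.31 in epithelial RNA and 9.76 and 9.88 in mesenchymal RNA. Egln3 was lower on all 5 of its arrays, but the log2 ratios of -1.15 and -0.43 differed widely. The mean of -0.79 ± 0.51 (n = 2) did not pass (adjusted p = 0.0549, limma), with a 95% interval of -1.25 to -0.33 before correction over features. With the outlier-flagged spot kept it was -0.72 over 3 cultures (adjusted p = 0.0213). In the authors' deposited table Egln3 had values of -1.22, -0.48 and -0.66 on the log2 scale, and a limma fit of that table gave an adjusted p of 0.00747.

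Hif1a encodes the alpha subunit that hydroxylation destroys. Its levels were 12.95, 13.22 and 12.93 in epithelial RNA and 13.24, 13.06 and 13.12 in mesenchymal RNA, which overlap. The log2 ratios were 0.28, -0.16 and 0.20, a mean of 0.11 ± 0.24 (adjusted p = 0.653, limma) with a 95% interval of -0.14 to 0.36.

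Bnip3 encodes a mitochondrial receptor for mitophagy and Adm the vasodilator peptide adrenomedullin. Bnip3 read 10.32, 10.48 and 9.84 in epithelial RNA and 10.45, 10.45 and 9.82 in mesenchymal RNA. Both RNAs of culture 3 were the lowest, and within each culture the RNAs differed by 0.12 or less. The brightness of its probe, as the mean of both dyes, ran from 8.53 to 11.16 (log2) over the 6 arrays. In culture 3 it was 8.53 on the array with mesenchymal RNA in Cy3 and 11.13 on the other. The low culture 3 levels of Bnip3 thus rest on a single array. Its mean was 0.02 ± 0.09 (adjusted p = 0.897, limma), with a 95% interval of -0.15 to 0.20. Adm read 9.62, 10.03 and 10.24 in epithelial RNA and 9.74, 9.91 and 10.19 in mesenchymal RNA, a mean of -0.01 ± 0.12 (adjusted p = 0.948) with an interval of -0.20 to 0.18. Both RNAs of culture 3 were the highest for Adm.

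All 3 mesenchymal levels were below all 3 epithelial levels for 5 of the 8 genes measured in 3 cultures, Ddit4, Ero1a, Ndrg1, Vegfa and Egln1, against 6.56% of the features measured in all cultures. No probe of the 9 genes was saturated on any array, and all 11 carried the scanner's flag for signal well above background on every array in both RNAs. That flag was also set on 18.5% to 81.5% of the negative control spots, so it separates little.

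Each probe was also read in both dye orientations. Ddit4, Ero1a, Ndrg1, Vegfa and Egln1 had negative ratios on all 6 arrays, while Hif1a and Adm were positive on 4 and negative on 2, and Bnip3 on 3 and 3. Ddit4 ranged from -2.51 to -0.997, and its ratios were lower on every array with epithelial RNA in Cy3 (-1.94, -2.02 and -2.51) than on any with epithelial RNA in Cy5 (-1.74, -1.23 and -0.997). Ero1a showed the same order, with -1.80, -1.92 and -1.90 against -1.56, -1.35 and -1.23. For Ndrg1 the orientations overlapped, with -1.03, -1.28 and -1.43 against -1.43, -1.66 and -1.35. Vegfa had -0.22, -0.61 and -0.20 against -0.53, -0.86 and -0.78, which overlap, and within each culture the array with epithelial RNA in Cy5 read lower. The dye effect, which the mean of the 2 arrays of a culture cancels, was -0.42 for Ddit4, -0.25 for Ero1a, 0.12 for Ndrg1 and 0.19 for Vegfa. It passed an adjusted p of 0.05 (limma) for 5 of the 9 genes, Ddit4, Ero1a, Vegfa, Hif1a and Egln3, near the 57.1% of all features.

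**Figure D2:**
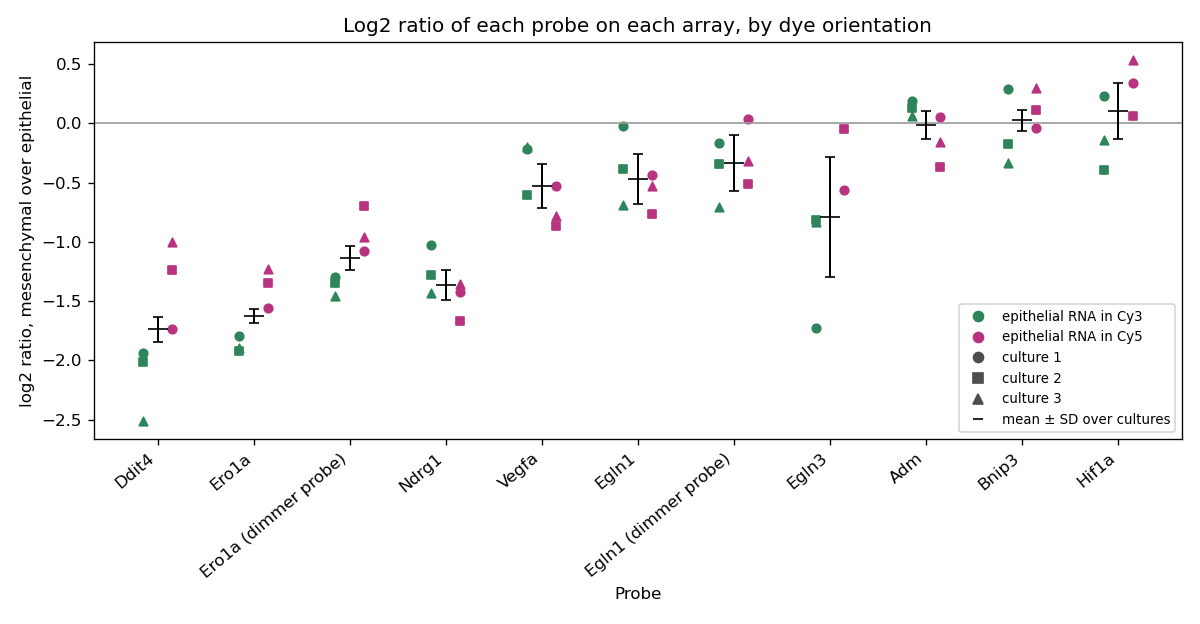
Log2 ratio of mesenchymal over epithelial RNA for 11 probes on each array, coloured by the dye of the epithelial RNA, with a symbol for each culture; black bars are the mean ± SD over cultures. Ddit4 spans -2.51 to -0.997 and stays below 0 on 6 arrays, and Egln3 has 5 arrays.

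The machinery that controls HIF was measured in 9 other genes, among them Arnt, Vhl, Egln2 and Cul2, and none of them passed the threshold, with a median log2 ratio of -0.003. The brightest were Eloc, a subunit of the VHL ligase (0.24 ± 0.08, adjusted p = 0.0969, limma), and Rbx1, its ring-finger subunit, which was saturated in both RNAs and carries no fold. Eloc passed without culture 1 (0.26, adjusted p = 0.0054, limma), in a fit that called 5154 of 16025 features. With Egln1, Egln3 and Hif1a included, the higher count of this list was 2, 0 or 0 without culture 1, 2 or 3. The lower count was 1, 0 or 0.

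Known HIF targets other than the 10 genes did not move one way. In 4 lists of such targets together, 13 of 53 measured genes were lower (24.5%), 11 higher (20.8%) and 29 did not pass, with a median of -0.01. Among 22 genes of glucose uptake and glycolysis, 5 were lower, 2 higher and 15 did not pass. The glucose transporter Slc2a3 fell by 1.36 ± 0.39 (adjusted p = 0.00291, limma), the lactate exporter Slc16a3 by 0.87 ± 0.16 and the glycogen synthase Gys1 by 0.62 ± 0.17, whose other probe read -0.09. The hexokinase Hk1 rose by 0.94 ± 0.09 (adjusted p = 0.000942). Also called, and named after their values were seen, were Aldoc (-0.38), Pfkfb3 (-0.35) and Slc2a1 (0.46, n = 2). Slc2a1 had a dye effect of -1.75 and was above 0 on 3 of 5 arrays, and Pfkfb3 had a dye effect of -0.62 and was above 0 on 2 of 6. The glycolytic genes Aldoa, Gapdh, Ldha, Pgam1 and Pgk1 were saturated in both RNAs on at least 5 arrays, so their ratios carry no fold. The other probes of Gapdh and Ldha read -0.05 ± 0.08 and 0.35 ± 1.02. Neither was called (adjusted p = 0.802 and 0.656 over all probes, limma). Gpi1, named after its values were seen, was not called, but its spot was saturated for epithelial RNA on 5 arrays. Its other probe read -0.50 ± 0.05 (adjusted p = 0.00805 over all probes, limma). Without culture 1, 2 or 3, the count of lower genes in this list was 8, 3 or 2, and Gys1 was not called without culture 3 (adjusted p = 0.0722). Over all features, these fits called 2288 of 16025, 621 of 15968 and 425 of 16833 lower, and 2866, 528 and 393 higher. List counts without a culture, above, here and below, are to be read beside these totals.

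Of 8 secreted and vascular targets other than Vegfa and Adm, 4 were higher and 1 was lower. Ackr3, a scavenging chemokine receptor, rose by 2.84 ± 0.41 (adjusted p = 0.000276, limma), F3, the tissue factor of coagulation, by 2.51 ± 0.19 and the vessel-destabilising ligand Angpt2 by 0.91 ± 0.14 (n = 2). Igfbp3, a binder of insulin-like growth factors, was lower by the mean, -1.11 ± 0.35, with a dye effect of -1.30, and it was above 0 on 2 of 6 arrays. Flt1, described with the VEGF receptors, was the other one that rose. Cxcl12, named after its values were seen, was not called, but its spot was saturated in both RNAs on 6 arrays. Its other probe read 0.47 ± 0.15 (adjusted p = 0.0199 over all probes, limma).

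All 6 measured collagen-modifying targets were called, 5 lower and 1 higher. Lox, the lysyl oxidase that cross-links collagen, fell by 1.68 ± 0.25 (adjusted p = 0.000499, limma), and its other probe by 1.58. The prolyl 4-hydroxylase gene P4ha1 had -1.21 ± 0.02 (n = 2), but its other probe, measured in 3 cultures, read -0.09, and without culture 1 or 3 only that probe could be used and P4ha1 was not called (-0.15 and -0.12). Loxl2 fell by 0.69 ± 0.18 (n = 2). Plod1, a lysyl hydroxylase, had -0.54 ± 0.22 with a dye effect of -0.72, was above 0 on 2 of 6 arrays and was not called without culture 3 (adjusted p = 0.0648). Plod2 (-0.40 ± 0.14, above 0 on 3 of 6 arrays) and Loxl4 (0.52 ± 0.13), named after their values were seen, complete the list. Without culture 1, 2 or 3 the lower count was 3, 4 or 1.

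In the list of mitophagy, growth arrest and pH, 17 genes other than the 10 were measured, of which 2 were lower and 4 higher. The transferrin receptor gene Tfrc had 1.03 ± 0.18 (adjusted p = 0.00132, limma), but its dye effect was -1.23, it was above 0 on 3 of 6 arrays, and its other probes read 0.21 and 0.15. Insig2, a brake on sterol synthesis, had 0.64 ± 0.16. The other calls, named after their values were seen, were Hmox1 and Ier3 (0.57 and 0.50) and the lower Ak4 and Car12 (-0.55 and -0.49). The lower count of this list, Ddit4 and Ndrg1 included, was 4, and 6, 2 or 2 without culture 1, 2 or 3, and the higher count of 4 became 10, 3 or 3.

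The relatives and partners of each gene are given next. Of 8 measured partners of Ero1a in oxidative folding, only Pdia5, a disulfide isomerase, was called (-0.50 ± 0.07, adjusted p = 0.00735, limma), and its call was lost without culture 2 (adjusted p = 0.0502) and without culture 3 (adjusted p = 0.072). P4hb, the disulfide isomerase that Ero1a recharges, was saturated in both RNAs. Hspa5 and Pdia3, named after their values were seen, were saturated for epithelial RNA on 5 and 2 arrays and for mesenchymal RNA on 4 and 3. With saturated spots left out, 6 genes of this list, Ero1a included, were tested, against 9 before. Of 9 measured mTOR brakes and their target complex other than Ddit4, only Sesn3, a sestrin, was called (-0.49 ± 0.19), with a dye effect of -0.75 and values above 0 on 2 of 6 arrays, and it was lost without culture 3 (adjusted p = 0.106). With Ddit4 this list had 2 lower genes, and 5, 2 or 1 without culture 1, 2 or 3. In the NDRG family, Ndrg4 had 0.50 ± 0.03 (n = 2, adjusted p = 0.0262), and Ndrg2 and Ndrg3 did not pass. Ndrg4 had a dye effect of 0.50 and was not called with a trended, robust variance (adjusted p = 0.0711, limma). On the arrays with epithelial RNA in Cy5 alone its log2 ratio was 0.0025, and it was not called. Ndrg4 was not tested without culture 2 or without culture 3.

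Vegfa fell while several other VEGF genes rose. Of 8 measured VEGF ligands and receptors other than Vegfa, 5 were higher and 1 was lower. The co-receptor gene Nrp1 rose by 1.89 ± 0.02 (adjusted p = 9.59e-05, limma), with other probes at 1.58 and 1.00, the ligand Vegfb by 1.65 ± 0.14 and the co-receptor Nrp2 by 0.74 ± 0.07. The receptor Flt1 rose by 0.56 ± 0.20 and was not called without culture 3 (adjusted p = 0.0551). Vegfc (0.54 ± 0.07) and the lower Flt4 (-0.40 ± 0.12) were named after their values were seen. Without culture 1, 2 or 3 the higher count was 6, 5 or 3. The lower count, Vegfa included, was 2, 0 or 0, so Flt4 lost its call without culture 2 and without culture 3.

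For Adm, none of 6 measured relatives and receptor subunits fell and 1 rose, Ramp3 (0.41 ± 0.14, named after its values were seen). The higher count of this list was 2, 0 or 0 without culture 1, 2 or 3, so Ramp3 lost its call without culture 2 and without culture 3, as it did with a trended, robust variance. The lower count was 1, 0 or 0. The brightest, the receptor partner Ramp2, had 0.04, -1.39 and -0.98 over the cultures and did not pass (adjusted p = 0.117, limma). Ramp2 passed without culture 1 (-1.19), in the fit that called 5154 of 16025 features. The other Ramp2 probe read 0.14 ± 0.08 (adjusted p = 0.33 over all probes, limma), so the lower values rest on a single probe. Of 12 measured relatives of Bnip3 and mitophagy genes, Map1lc3b, an autophagosome protein gene, rose by 0.95 ± 0.13 (n = 2), while Bnip2 (-0.52 ± 0.20) and Gabarapl1 (-0.39 ± 0.06) fell. Both of the latter lost their call without culture 2 (adjusted p = 0.0809 and 0.0835) and without culture 3 (adjusted p = 0.109 and 0.128). The Gabarapl1 spot saturated with epithelial RNA on 2 arrays, and with saturated spots left out it was not tested. Map1lc3b was not tested without culture 2 or without culture 3. Bcl2 and Sqstm1, named after their values were seen, were not called (0.03 and 0.27). Their other probes were higher, 0.97 ± 0.65 and 0.35 ± 0.04 (adjusted p = 0.047 and 0.0264 over all probes, limma). The other probes of Bcl2l1, Bnip1, Bnip3l, Fundc1 and Mcl1 were not called.

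Ddit4, Ero1a and Ndrg1 are the 3 of the 10 genes that also stand on the list of ATF4 and CHOP targets, genes of amino acid and endoplasmic reticulum stress, and all 3 fell. Of the 6 measured genes not on that list, 2 fell. The lists were chosen with earlier results of these data known, so this split is a description and tests no cause. Of 10 other measured genes of the ATF4 list, 6 were lower (60.0%), none was higher and 4 did not pass, with a median of -0.71. Cth, an enzyme of cysteine synthesis, had log2 ratios of -2.39, -2.45 and -2.34, and Trib3, a stress-induced pseudokinase, -2.22, -2.14 and -2.28. Both were lower on all 6 arrays. The other lower ones, named after their values were seen, were Shmt2 (-1.09, n = 2, with another probe at -0.23), Slc3a2 (-0.95 ± 0.66), Asns (-0.76 ± 0.25, above 0 on 3 of 6 arrays) and Atf3 (-0.64 ± 0.07). Atf4 itself was saturated for epithelial RNA on all 6 arrays, so its -0.31 ± 0.21 (adjusted p = 0.104, limma) may understate a difference. With Ddit4, Ero1a and Ndrg1 included, 9 of 13 were lower, and 10, 7 or 6 without culture 1, 2 or 3.

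**Figure D3:**
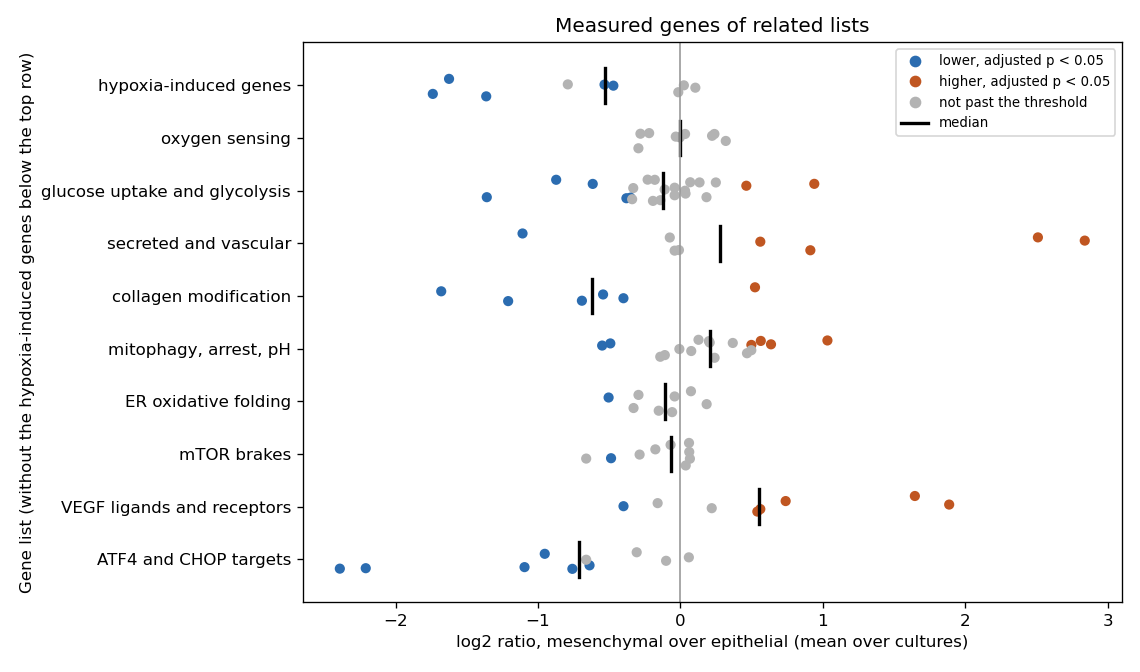
Mean log2 ratio of mesenchymal over epithelial RNA for each measured gene of 10 lists, with the hypoxia-induced genes in the top row and left out of the rows below; blue and orange mark genes called lower and higher, and black bars are medians. The medians of the hypoxia-induced genes (-0.53), the collagen list (-0.62) and the ATF4 list (-0.71) lie below 0, and that of the VEGF list (0.55) lies above.

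The named genes nearest to each changed gene over the 6 array ratios were picked by Euclidean distance, as a description over 6 arrays of 3 cultures. For Ddit4 these were the growth factor gene Pdgfa (distance 0.525; -1.79 ± 0.04) and the lipid transporter Mfsd2a (0.637; -1.71 ± 0.19). For Ero1a they were the asparaginase Asrgl1 (0.382; -1.54 ± 0.18) and again Mfsd2a (0.419). For Ndrg1 they were the ligand Wnt5b (0.293; -1.35 ± 0.18) and the alanine transaminase Gpt2 (0.381; -1.28 ± 0.07). For Vegfa they were the histone methyltransferase Nsd2 (0.211) and Zfp275 (0.301), and for Egln1 the aspartate transaminase Got1 (0.167) and Morf4l1 (0.25).

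Cell type markers were read beside these results. Of 12 markers of ovarian surface epithelium and mesothelium, 9 had a probe, and 6 were lower and none higher in mesenchymal RNA. All 9 carried the well-above-background flag on every array, which does not show that each was expressed. Their summed intensity was 292400 to 320600 in epithelial RNA and 141000 to 167800 in mesenchymal RNA, lower beside the lower Ddit4, Ero1a and Ndrg1, and its part in their change was not tested. Krt7 was saturated for epithelial RNA on 6 arrays, Krt8 on 3 and Krt19 on 2, so the epithelial sum is capped and the size of the drop is not measured. For endothelium, 5 of 9 markers had a probe and none was called, with sums of 12420 to 24940 in epithelial and 14030 to 22590 in mesenchymal RNA. For macrophages, 3 of 8 had a probe and none was called, with sums of 8358 to 14130 and 8542 to 13550. Of the granulosa and the theca and stroma markers, 7 of 7 each had a probe and 2 each were lower, and of 7 smooth muscle markers 6 had a probe and 1 was lower. No red cell marker had a probe. The summed theca and stroma markers were 11020 to 13650 against 7643 to 9906, the granulosa markers 22530 to 35490 against 20880 to 31180, and the smooth muscle markers 23400 to 28540 against 18130 to 22600.

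Culture 1 differed from the others: across features its log2 ratios correlated with those of cultures 2 and 3 at 0.612 and 0.651, and cultures 2 and 3 with each other at 0.888. Ddit4, Ero1a and Ndrg1 kept their direction and their call in all 18 alternatives tried, Ddit4 between -2.15 and -1.32, Ero1a between -1.87 and -1.38 and Ndrg1 between -1.48 and -1.25.

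**Figure D4:**
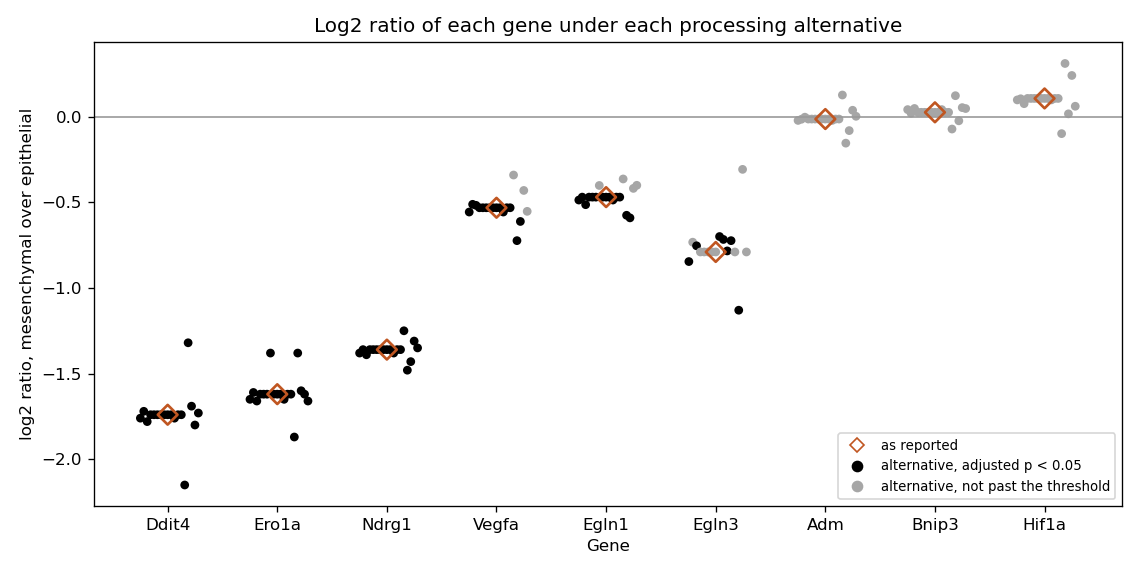
Log2 ratio of mesenchymal over epithelial RNA for 9 genes as reported (open diamonds) and under each processing alternative (dots, black where the adjusted p is under 0.05 and grey otherwise). Ddit4, Ero1a and Ndrg1 are black in every alternative, Vegfa turns grey in 3 and Egln1 in 4, and Hif1a, Bnip3 and Adm are grey in all.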

How the data were processed

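RNA of 3 cultures was measured on 6 arrays, 2 per culture with exchanged dyes. Per the file headers, the deposited spot intensities are means and local backgrounds as the Agilent software scanned them, in linear units, and the deposited log10 ratios come from its processed signals. The authors' value table equals the mean of a culture's 2 turned log10 ratios, with column medians of 0.00555, -0.0101 and -0.00233. The submitters' processing notes name limma. The dye orientation of each array comes from the names of the deposited arrays, as each sample's labels give both dyes to either RNA.

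Intensities were corrected with normexp (offset 50) and loess-normalised within arrays (limma 3.58.1, R 4.3.3). Control spots had weight 0 and outlier-flagged spots were dropped. Every ratio was set as mesenchymal over epithelial before averaging a culture's 2 arrays, both being needed. Probes lacking the well-above-background flag for 1 RNA on at least 4 of the 6 arrays were removed (43), 2 cultures were required, and the brightest probe stood for a gene. Of 17582 features, 2105 rested on 2 cultures and 9957 had a gene name. Ratios were tested against 0 with lmFit and eBayes, with Benjamini-Hochberg correction over all features. The number of arrays limits the precision. Levels per RNA are loess and Aquantile scaled. Saturated spots were kept, which makes ratios smaller.

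Names came from gene IDs matched to RefSeq (GRCm38.p6; 9946 probes), symbols (95), synonyms (1335) or the file (1256), and 7739 probes had none. On the culture 3 array with mesenchymal RNA in Cy3, the outlier flag hit 1639 probes, while the other arrays had 61 to 467. RefSeq promoter stretches were matched by symbol for 9 of the 10 genes, without Ndrg1.

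The genes and gene lists were chosen with earlier results of these data known. Genes named in full were the 10 genes, up to 4 called genes with the largest change per list (or the 2 brightest where fewer than 2 were called), and the 2 nearest genes of each changed one. Steps were tested on simulated data. The alternatives varied background correction, normalisation, filter, probe rule, variance model, replicates, dye orientation and threshold.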

Additional observations from a re-analysis of the deposited data

How the results depend on the processing

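The 5 genes past the threshold became 3 at an adjusted p under 0.01 and 3 to 5 when each culture was left out in turn. Over the other alternatives the count was 4 to 6. Over all features the 2088 calls became 933 at an adjusted p under 0.01, 7047 on the 3 arrays with epithelial RNA in Cy3 alone, 5882 on those with epithelial RNA in Cy5 alone, and 818 to 5154 when each culture was left out, the most without culture 1. On arrays of a single orientation a dye effect does not cancel. There, Tfrc turned to -0.20 (epithelial RNA in Cy3), and Igfbp3, Plod1 and Sesn3 turned to 0.20, 0.18 and 0.26 (epithelial RNA in Cy5). Vegfa and Egln1 were not called on the arrays with epithelial RNA in Cy3 (-0.34 and -0.36), and Egln3 was called in 7 of 16 alternatives. With 6 arrays and the culture as a replicate block, 2496 features and 6 of the 9 genes were called, and without the block 3034 and 6. Of 530 comparisons for the other named genes, 497 kept direction and side of the threshold, 19 lost the call, 8 gained it, 4 reversed and 2 moved. Of 456 list counts, 108 moved by over 1.5 times, or to or from 0. The median of all features lay between -0.019 and 0.02. A slide block was not run, since no slide is known to hold more than 1 array. How far signal over background limits each gene was not measured.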
